A study of Mus musculus with 2 samples.

Results

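The cell-surface proteoglycan genes Sdc1, Sdc2, Sdc3 and Sdc4 (syndecans), Gpc1, Gpc3, Gpc4 and Gpc6 (glypicans) and Cd44 were followed in Pdgfra-lineage cells of mouse dermis. They were taken by gene symbol from a list of names, and are 9 of the 31053 genes in the count tables. Single-cell RNA sequencing with the 10x Chromium 3′ kit (version 3) was run on 1 untreated (UT) and 1 imiquimod (IMQ)-induced library from C57BL/6 mice of genotype PdgfraDreER-tdTomato, aged 8 weeks. Imiquimod, a Toll-like receptor agonist that gives psoriasis-like skin lesions, was applied for 7 days before the IMQ library was made. In both groups tamoxifen switches on a Dre recombinase under the control of Pdgfra, so that tdTomato marks cells which carried Pdgfra at labelling and their descendants, and the sort kept live tdTomato-positive, CD45-negative cells of the dermis. The number of mice behind each library is not given in the sources used here.

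Syndecans span the membrane and glypicans are tethered to it by a lipid anchor. Both carry heparan sulfate chains that hold growth factors, chemokines and matrix proteins at the cell surface, and both can be released by proteases or lipases. CD44 is the main receptor for hyaluronan, links the pericellular matrix to the actin cytoskeleton, and carries sugar chains in some isoforms.

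Unless stated otherwise, values are sums over barcodes with 200 to 5000 genes and at most 5% mitochondrial (mt-) counts, which the text calls the 5% set. It holds 1045 UT barcodes with 1104798 unique molecular identifiers (UMIs, 1 per captured RNA molecule) and 571 IMQ barcodes with 460947 UMIs, which are 73.9% and 11.3% of the deposited barcodes. The median depth was 741 UMIs per UT barcode and 659 per IMQ barcode, and the libraries share 1 barcode sequence. The rRNA-overlapping gene Gm42418 took 1.38% of UT and 14.6% of IMQ UMIs. The log2 ratio of the median gene, IMQ over UT, was -0.61 among the 8129 genes with at least 10 UMIs. Summed fibroblast markers (7 of 7 detected in each library) stood at 81828 UMIs per 1000000 (CPM) in UT and 122602 in IMQ, while 10 keratinocyte markers summed to 2128 and 17.4 CPM (none and 6 at 0) and 10 leukocyte markers to 1633 and 202 CPM (1 and 3 at 0). With 1 library per group there is no replicate, so no difference between conditions can be tested, and every interval printed is a 95% interval of counting error only.

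The main pattern lay in the syndecans. Sdc4 was the most abundant member in UT and was lower in IMQ, while Sdc2 stood at a similar CPM in both libraries of the 5% set. Relative to the median gene Sdc2 was higher in IMQ, with a log2 ratio of 0.74 (0.33 to 1.14). Sdc2 had the most UMIs of the syndecans in the IMQ barcodes of the 5% set. It did not in IMQ cluster 4 or over all deposited IMQ barcodes. Gpc4, the leading glypican, was also lower in IMQ. Cd44 was the only member that stood more than 2-fold above the median gene in IMQ, on few UMIs. Of the 8 members with at least 10 UMIs in the 5% set, 1 was at least 2-fold higher in IMQ relative to the median gene (Cd44), against 12.7% of all genes measured, and 2 were at least 2-fold lower (Sdc4 and Gpc1), against 14.9% of all genes. The median log2 ratio of the 8 was -1.34, beside -0.61 for all genes. With up to 10% mitochondrial counts that of all 9 members was -0.98, beside -0.69. Over all deposited barcodes it was -0.58, beside -1.04, so the members then lay above the median gene. Gpc6, with 9 UMIs, was under the minimum. Each UMI stands for 1 molecule tagged at its 3′ end whatever the transcript's length, so that levels of different genes are set side by side as UMI counts.

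**Figure D1:**
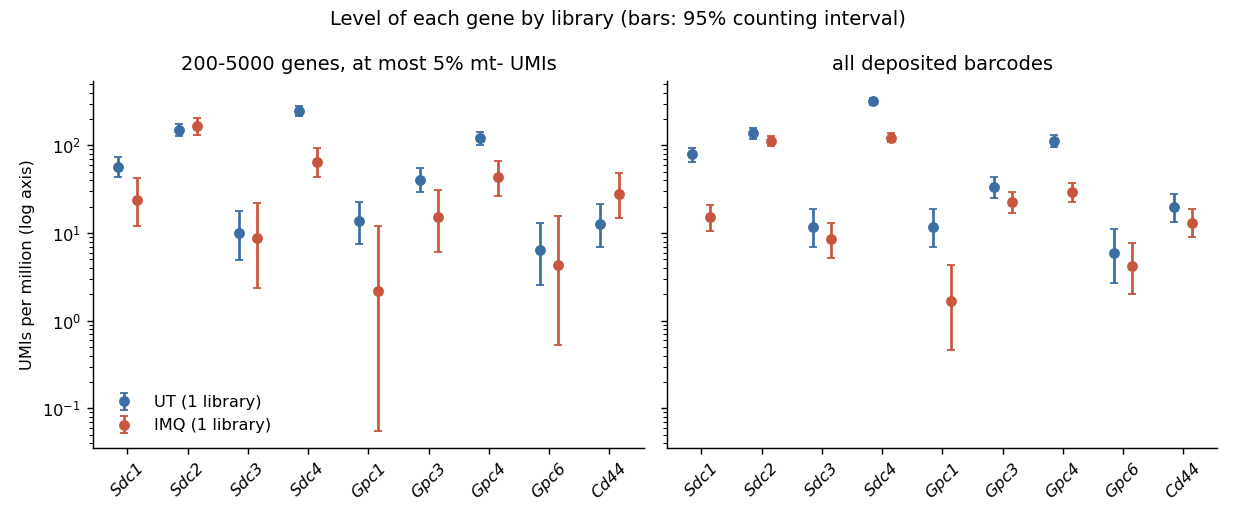
Level of each gene in UMIs per 1000000 on a log axis, UT in blue and IMQ in red, in the 5% set (left) and over all deposited barcodes (right); bars are 95% counting intervals of 1 library each. In the left panel the Sdc2 points of both libraries lie together, at 151 and 165 CPM, while Sdc4 stands at 247 CPM in UT and 65.1 CPM in IMQ.

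Sdc4 (ENSMUSG00000017009, GRCm38 chr2:164424247-164443887, minus strand) encodes syndecan-4, which works with integrins at focal adhesions and binds fibronectin. In UT it had 273 UMIs in 138 of 1045 barcodes, which is 247 CPM (219 to 278). In IMQ it had 30 UMIs in 11 of 571 barcodes, which is 65.1 CPM (43.9 to 92.9). The IMQ level was thus 3.80-fold lower, with a log2 ratio of -1.92 (-2.52 to -1.38), or -1.31 (-1.91 to -0.76) relative to the median gene. The share of barcodes with a UMI was 13.2% (11.2 to 15.4) in UT and 1.93% (0.966 to 3.42) in IMQ. Thinned to 400 UMIs per barcode, which leaves out 73 UT and 33 IMQ barcodes, the shares were 5.86% (4.47 to 7.53) and 0.558% (0.115 to 1.62), so the gap between the libraries was present at equal depth as well.

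The Sdc4 UMIs were spread very unevenly over the cells. Clustering with the 9 members left out gave 6 clusters, of which 4 were fibroblast-like by their markers (clusters 1, 2, 3 and 6), 1 was leukocyte-like (cluster 5, led by Cd74 and H2-Ab1) and 1 was left unnamed. The unnamed cluster 4 was led by Malat1 and by keratin genes, had each of the 7 fibroblast markers in 20% or more of its cells beside 6 enriched keratinocyte markers, and was much deeper, with a median of 3690 UMIs in its 32 UT cells and 5689 in its 7 IMQ cells. Its summed fibroblast markers stood at 18013 CPM over both libraries, beside 69585, 156120 and 111040 CPM in clusters 1, 2 and 3 and 9766 CPM in cluster 6. Only 1 keratinocyte marker was seen in 20% or more of its cells. Cluster 4 held 131 of the 273 UT and 24 of the 30 IMQ Sdc4 UMIs, that is 48.0% and 80.0%, although it took only 16.1% and 8.57% of all UMIs. In this cluster Sdc4 stood at 738 CPM (617 to 875) in UT and 608 CPM (389 to 904) in IMQ, a log2 ratio of -0.28 (-0.97 to 0.36). The highest UT cell held 33 of the 131 UMIs and the highest IMQ cell 9 of the 24. The counting intervals do not cover this unevenness between cells. The cells of this cluster differed between the libraries, however. The 32 UT cells carried 2275 of the library's 2351 keratinocyte marker UMIs, 1151 of them in 1 cell, and the 7 IMQ cells carried 1. The part of this difference in the Sdc4 values of the cluster was not tested.

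In the fibroblast-like clusters the libraries were far apart. Sdc4 had 139 UMIs in 11.5% of 988 UT cells and 6 UMIs in 1.08% of 554 IMQ cells, or 153 CPM (128 to 180) against 14.5 CPM (5.32 to 31.6). The log2 ratio was -3.40 (-4.87 to -2.24), and the IMQ UMIs lay at 1 per cell. The 3 large fibroblast-like clusters pointed the same way. In cluster 1, led by Igfbp2 and Stmn2, Sdc4 had 134 CPM in UT and 25.3 CPM in IMQ. In cluster 2, led by collagen genes and Klk1b24, it had 143 CPM in UT and no UMI in 124228 IMQ UMIs. With 3 counts put in place of 0 the IMQ level was 5.93-fold lower, and the counting interval of the log2 ratio ended at -2.20. In cluster 3, led by Lbp, Pi16 and C7, the levels were 165 and 15.5 CPM. No test of the difference between cluster 4 and the fibroblast-like clusters is possible with 1 library each.

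**Figure D2:**
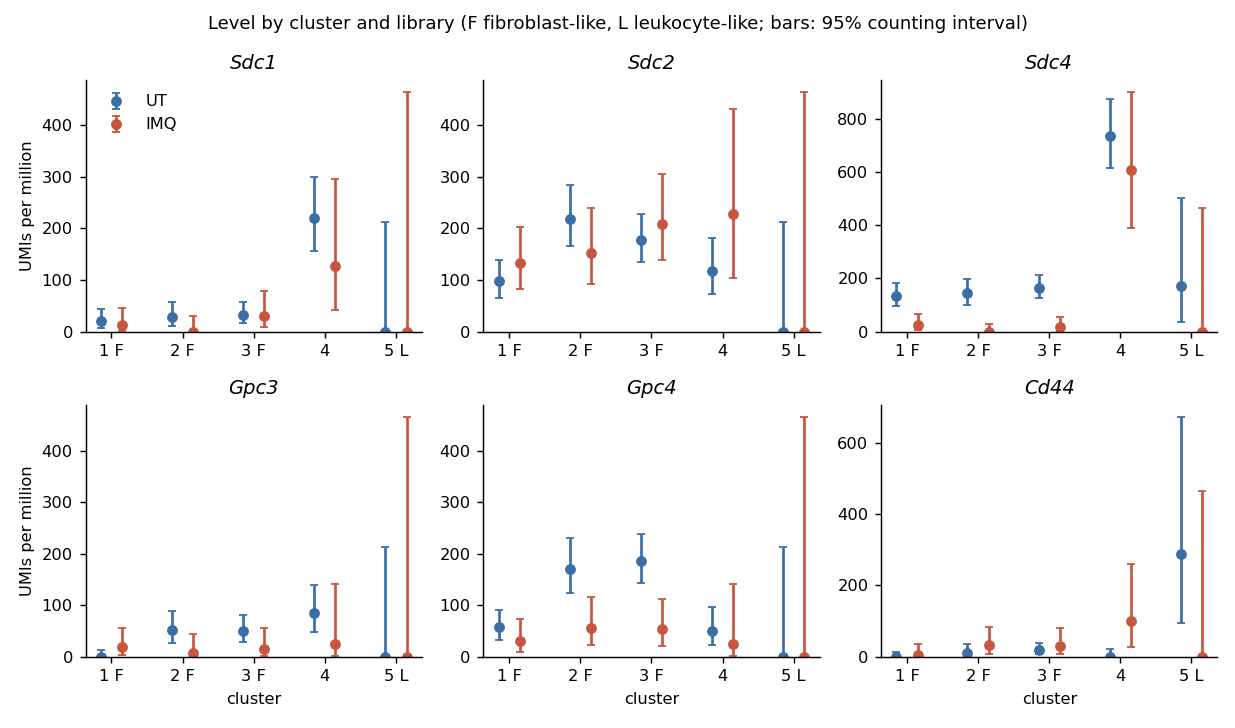
Level of 6 members in UMIs per 1000000 by cluster (F fibroblast-like, L leukocyte-like, 4 unnamed) and library, with 95% counting intervals; cluster 6, with 3 IMQ cells, is left out. For Sdc4 the UT points of clusters 1 to 3 lie between 134 and 165 CPM and the IMQ points at or below 25.3 CPM, while cluster 4 stands at 738 and 608 CPM.

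Cells of similar depth gave the same picture. Among barcodes with 500 to 1500 UMIs (667 in UT and 425 in IMQ, medians 793 and 707 UMIs), Sdc4 had 79 UMIs in 10.6% of UT and 5 UMIs in 1.18% of IMQ barcodes, a log2 ratio of -3.21 (-4.87 to -1.93). A minimum of 500 genes instead of 200 left 303 UT and 37 IMQ barcodes, and Sdc4 then showed a log2 ratio of -0.11 (-0.77 to 0.50). These barcodes include 31 UT and 6 IMQ cells of cluster 4, which held 131 of the UT and 24 of the IMQ Sdc4 UMIs. In the fibroblast-like clusters alone, a combination chosen after seeing the data, the same minimum left 66 Sdc4 UMIs in 54 of 270 UT cells and 1 UMI in 28 IMQ cells, 151 CPM (117 to 192) and 24.7 CPM (0.625 to 138), a log2 ratio of -2.61 (-7.94 to -0.08).

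Sdc2 (ENSMUSG00000022261, GRCm38 chr15:32920723-33034935, plus strand) encodes syndecan-2, the syndecan typical of mesenchymal cells. The 167 Sdc2 UMIs of UT amounted to 151 CPM (129 to 176) and the 76 of IMQ to 165 CPM (130 to 206), a log2 ratio of 0.13 (-0.29 to 0.53). Relative to the median gene the ratio was 0.74 (0.33 to 1.14), since most genes were lower in IMQ. Barcodes with a UMI made up 12.0% (10.1 to 14.1) of UT and 11% (8.58 to 13.9) of IMQ, and 5.14% and 5.02% after thinning to 400 UMIs. Within the fibroblast-like clusters the levels were 160.5 and 162 CPM (log2 ratio 0.01, -0.43 to 0.44). Cluster 4, with 16.1% of all UT and 8.57% of all IMQ UMIs, held 12.6% and 11.8% of the Sdc2 UMIs. Its shares of the Sdc4 UMIs were 48.0% and 80.0%. Sdc2 lay at 97.0, 219 and 177 CPM in UT clusters 1, 2 and 3 and at 133, 153 and 209 CPM in the same clusters of IMQ. In cluster 4 it stood at 118 CPM (73.2 to 181) in UT and 228 CPM (104 to 432) in IMQ.

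Shares within the syndecan family do not depend on how the libraries are scaled. Of 514 syndecan UMIs in UT, Sdc4 made up 53.1% (48.7 to 57.5) and Sdc2 32.5% (28.5 to 36.7). Of 121 in IMQ, Sdc4 made up 24.8% (17.4 to 33.5) and Sdc2 62.8% (53.6 to 71.4). The order of both genes thus differed between the libraries in the 5% set. Over all deposited barcodes Sdc4 led in both, with 58.4% (54.9 to 61.7) in UT and 47.4% (43.4 to 51.4) in IMQ, beside 25.1% and 43.5% (39.5 to 47.5) for Sdc2. A single IMQ barcode held 194 of the 290 IMQ Sdc4 UMIs there, and without the barcode with the most syndecan UMIs in each library Sdc4 made up 53.0% in UT and 23.5% in IMQ and Sdc2 32.9% and 63.0%. In the fibroblast-like clusters Sdc2 and Sdc4 were nearly level in UT, at 46.2% (40.6 to 51.9) and 44.0% (38.4 to 49.7) of 316 UMIs, and stood at 80.7% (70.6 to 88.6) and 7.23% (2.70 to 15.1) of 83 UMIs in IMQ. Summed over the 4 genes, syndecan level was 465 CPM in UT and 263 CPM in IMQ, a log2 ratio of -0.83 (-1.12 to -0.54), which is -0.21 relative to the median gene.

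**Figure D3:**
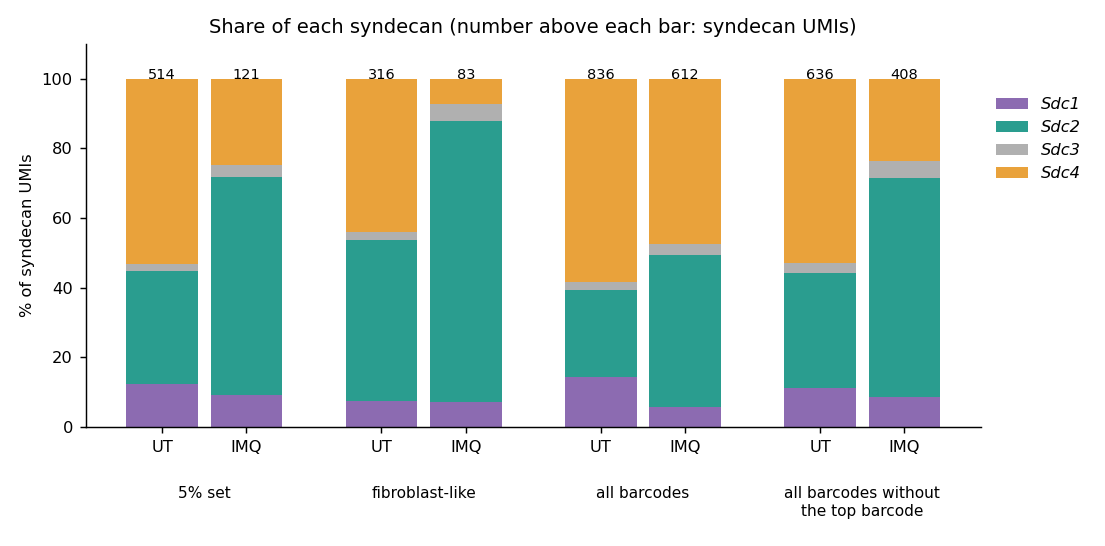
Share of each syndecan in all syndecan UMIs (%), UT and IMQ side by side, in the 5% set, in its fibroblast-like clusters, over all deposited barcodes, and over all deposited barcodes without the barcode that holds the most syndecan UMIs; the number above each bar is the UMI count it divides. In the 5% set Sdc2 (green) makes up 32.5% in UT and 62.8% in IMQ, and Sdc4 (orange) 53.1% and 24.8%.

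Sdc1 (ENSMUSG00000020592, GRCm38 chr12:8771323-8793715, plus strand) encodes syndecan-1, the main syndecan of epithelia and plasma cells. The level was 57.0 CPM (43.8 to 73.0) in UT, on 63 UMIs, and 23.9 CPM (11.9 to 42.7) in IMQ, on 11 UMIs, a log2 ratio of -1.26 (-2.33 to -0.32). Of the 63 UT UMIs, 39 were in cluster 4, at 220 CPM (156 to 300), and the 35 UT barcodes with an Sdc1 UMI carried 2270 of the library's 2351 keratinocyte marker UMIs. The 138 UT barcodes with Sdc4 carried 2282 of them and the 12 with Gpc1 2265. These barcodes overlap: 1 UT cell with 1151 of the marker UMIs held 11 Sdc1, 17 Sdc4 and 1 Gpc1 UMIs. The IMQ barcodes with Sdc1, Sdc4 and Gpc1 carried 0, 1 and 0 keratinocyte marker UMIs. Of the UT barcodes with Sdc1, 25.7% had any keratinocyte marker, beside 6.83% of the UT barcodes without Sdc1, at median depths of 2093 and 725 UMIs. In the fibroblast-like clusters Sdc1 had 24 and 6 UMIs, 26.4 and 14.5 CPM, and the interval of the log2 ratio of -0.86 (-2.44 to 0.47) included 0. Keratinocyte marker RNA, at 2128 CPM in UT and 17.4 CPM in IMQ, was lower in IMQ, as were the levels of Sdc1, Sdc4 and Gpc1. Its part in the differences of these 3 genes was not tested. In the fibroblast-like clusters these markers had 76 UMIs in UT and 7 in IMQ, and the log2 ratio of Sdc4 was -3.40.

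Sdc3 (ENSMUSG00000025743, GRCm38 chr4:130792537-130826319, plus strand), a syndecan best known from the nervous system, was scarce. Its 11 UT UMIs and 4 IMQ UMIs correspond to 9.96 and 8.68 CPM, and the interval of its log2 ratio of -0.20 (-2.30 to 1.56) covers both directions. The antisense genes Gm12970 and Gm26716 that overlap Sdc3 had no UMI.

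Among the glypicans, Gpc4 (ENSMUSG00000031119, GRCm38 chrX:52053021-52165252, minus strand), a co-receptor for fibroblast growth factor and Wnt signals, was the leading gene in both libraries. It had 134 UMIs in 101 UT barcodes and 20 UMIs in 19 IMQ barcodes, which is 121 CPM (102 to 144) and 43.4 CPM (26.5 to 67.0). The IMQ level was 2.80-fold lower, with a log2 ratio of -1.48 (-2.24 to -0.80), or -0.87 (-1.63 to -0.19) relative to the median gene, so that it lay below the median gene by less than 2-fold. Barcodes with a UMI were 9.67% in UT and 3.33% in IMQ, and 3.70% (2.61 to 5.09) and 1.12% (0.410 to 2.41) after thinning. The fibroblast-like clusters held 125 of the 134 UT and 19 of the 20 IMQ Gpc4 UMIs. They also held most UMIs of all genes, 909877 of 1104798 in UT and 413512 of 460947 in IMQ. In these clusters Gpc4 stood at 137 and 45.9 CPM (log2 ratio -1.58, -2.36 to -0.88). In UT cluster 4 it stood at 50.7 CPM (23.2 to 96.2). In UT it was lower in cluster 1, at 56.9 CPM (33.1 to 91.1), than in clusters 2 and 3, at 171 CPM (124 to 231) and 186 CPM (143 to 238). In IMQ the same clusters had 31.6, 56.3 and 54.3 CPM, with intervals that overlap.

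Gpc3 (ENSMUSG00000055653, GRCm38 chrX:52272426-52613950, minus strand), whose loss leads to overgrowth and which lies 107 kb from Gpc4, had 45 UMIs in UT and 7 in IMQ. These are 40.7 CPM (29.7 to 54.5) and 15.2 CPM (6.11 to 31.3), a log2 ratio of -1.42 (-2.82 to -0.26), and the interval relative to the median gene (-2.20 to 0.35) included 0. In UT it was not seen in the 456 cells of cluster 1 (298827 UMIs) but stood at 51.7 and 50.1 CPM in clusters 2 and 3 and at 84.5 CPM in cluster 4. A single cell held 8 of the 13 UMIs of UT cluster 2, and another held 9 of the 15 of UT cluster 4. In IMQ, clusters 1, 2 and 3 had 3, 1 and 2 Gpc3 UMIs, so the absence from cluster 1 was not seen there. The 45 UT UMIs came from 23 barcodes, of which the highest held 9 UMIs and was led by Dcn, Apod and Lum.

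Gpc1 (ENSMUSG00000034220, GRCm38 chr1:92831645-92860779, plus strand) had 15 UMIs in UT and 1 in IMQ, 13.6 CPM (7.60 to 22.4) and 2.17 CPM (0.0549 to 12.1), and the interval of its log2 ratio of -2.65 (-8.04 to 0.05) included 0. Of the 15 UT UMIs, 10 were in cluster 4. Gpc6 (ENSMUSG00000058571, GRCm38 chr14:116925315-117976544, plus strand), whose loss impairs bone growth, had 7 and 2 UMIs, 6.34 and 4.34 CPM, of which cluster 4 held 4 and both. Summed over the 4 genes, glypican level was 182 CPM in UT and 65.1 CPM in IMQ, a log2 ratio of -1.48 (-2.09 to -0.92). Gpc4 made up 66.7% of glypican UMIs in each library (59.7 to 73.1 in UT and 47.2 to 82.7 in IMQ), so that the make-up of the glypicans, unlike that of the syndecans, showed no difference that 201 and 30 UMIs could resolve.

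Cd44 (ENSMUSG00000005087, GRCm38 chr2:102811141-102901665, minus strand) had 14 UMIs in 11 UT barcodes and 13 UMIs in 10 IMQ barcodes. These are levels of 12.7 CPM (6.93 to 21.3) and 28.2 CPM (15 to 48.2). The log2 ratio was 1.15 (-0.05 to 2.35), and 1.77 (0.56 to 2.97) relative to the median gene. Leukocytes express CD44 strongly, and in UT 5 of the 14 UMIs lay in 4 of the 25 cells of the leukocyte-like cluster 5, at 288 CPM (93.5 to 672). In IMQ the 10 cells of cluster 5 had no Cd44 UMI among 7930 UMIs in all, too few to place the gene there, and the 13 UMIs were in clusters 1 to 4. The fibroblast-like clusters alone gave 9 UMIs in each library, 9.89 and 21.8 CPM, with a log2 ratio of 1.14 (-0.37 to 2.65). Cluster 4 had no Cd44 UMI in 177562 UT UMIs and 4 in 39505 IMQ UMIs.

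**Figure D4:**
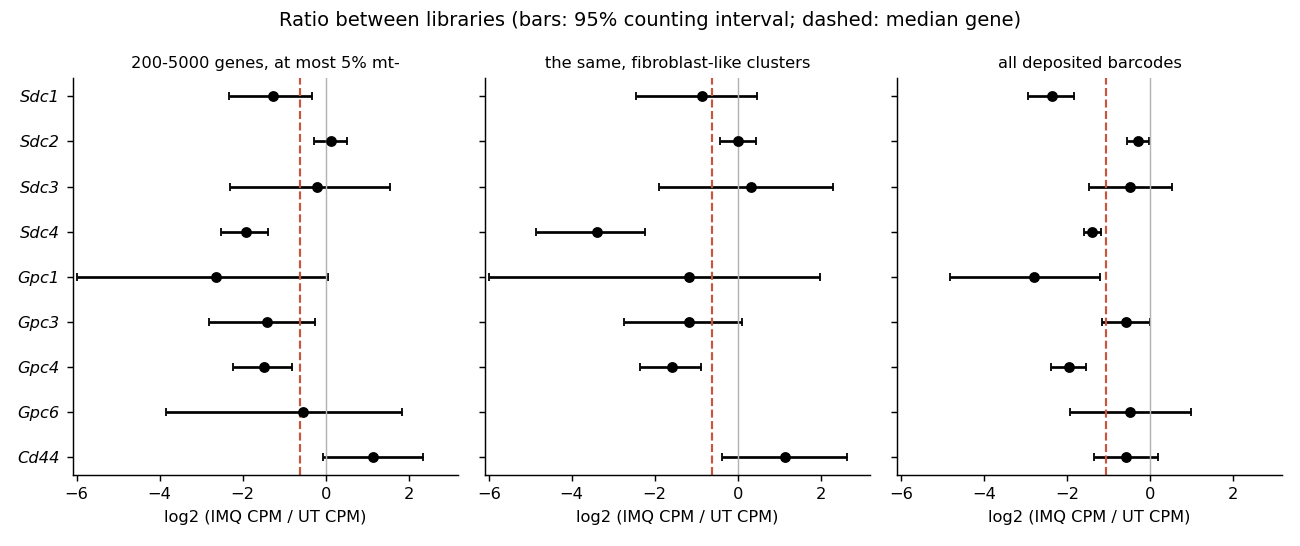
Log2 ratio of IMQ over UT for each gene with its 95% counting interval, in the 5% set, in its fibroblast-like clusters and over all deposited barcodes. The grey line is 0 and the dashed line the median gene. The Gpc1 intervals of the left and middle panels are drawn cut off near the left edge. Their lower limits are -8.04 and -6.75. Gpc6 has too few UMIs to be drawn in the middle panel. Sdc4 stands at -1.92, -3.40 and -1.38 in the 3 panels and Sdc2 at 0.13, 0.01 and -0.29.

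Cluster 5 was too small to set a background of stray RNA. Sdc1, Sdc2 and the 4 glypicans had no UMI in its 35 cells (median 411 UMIs in UT and 562 in IMQ), which allows up to 8.57% of such cells with a UMI. At a like depth of 400 UMIs the shares of Sdc2 in the 5% set were 5.14% and 5.02%, and those of the other 5 genes were lower still, so that each lay under this limit. Sdc4 had 3 UMIs in 1 of the 25 UT cells of cluster 5 and none in its 10 IMQ cells.

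Few cells showed more than 1 member. In UT 67.1% of barcodes had no UMI of any of the 9 genes (median 649 UMIs) and in IMQ 82.3% (635.5 UMIs), and the most members in any barcode were 5 in UT and 4 in IMQ. The UT barcodes with 1, 2 and 3 members had median depths of 941, 1800 and 2858 UMIs, so that co-detection went with depth. The most frequent pair in UT was Sdc2 with Gpc4, in 22 barcodes, followed by Sdc4 with Sdc2 and with Gpc4, in 18 barcodes each. In IMQ the pairs of Sdc2 with Sdc4 and with Cd44 were seen in 5 barcodes each.

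Genes that varied from cell to cell like Sdc4 were sought among 704 genes with at least 50 UMIs in each library, across 1045 UT and 571 IMQ barcodes. The 3 nearest were Malat1, a nuclear long RNA (Pearson's r of 0.17 in UT and 0.44 in IMQ), Errfi1, a feedback inhibitor of the EGF receptor (0.13 and 0.48), and Rasd1, a Ras-related protein induced by dexamethasone (0.17 and 0.42). All these barcodes share a library and differ in depth, and cluster 4 is led by Malat1, so the values are given as a description. For Sdc1 the nearest genes were Egr1, Junb and Malat1, for Sdc2 Zfp36l1, Cd63 and Serpinh1, for Gpc3 Apod, Cnbp and Snrpb, and for Gpc4 Clec11a, Plpp3 and Tnxb, with r between 0.06 and 0.24 in either library.

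The partners and enzymes of the pathway were taken as lists, whose counts are read against the 12.7% of all genes at least 2-fold higher and the 14.9% at least 2-fold lower. Of 11 genes that build the linkage and the heparan sulfate chain, 9 had at least 10 UMIs, 1 was at least 2-fold higher relative to the median gene (Ext1, a chain polymerase, 21.7 CPM in UT and 30.4 in IMQ), none was lower, and the median log2 ratio was -0.52, near the -0.61 of all genes. Ext1 rested on 24 UT and 14 IMQ UMIs, and the interval of its log2 ratio of 0.48 (-0.58 to 1.49) included 0. No gene of this list was at least 2-fold higher in either of the other barcode sets. Of 14 genes that modify the chain, 6 were measured, 2 were higher (Hs6st1, a 6-O-sulfotransferase, with 6 and 7 UMIs, and Sulf1, an extracellular sulfatase, with 9 and 7 UMIs) and none was lower. The sulfatase Sulf2, the best detected of them, stood at 214 and 113 CPM, -0.31 relative to the median gene. None of the other part-time surface proteoglycans or secreted heparan sulfate proteoglycans was lower, and Cspg4 (9 and 5 UMIs, 0 and 1 of them in the fibroblast-like clusters) was higher, among 5 measured. Gpc2 and Gpc5, the remaining glypicans, were under 10 UMIs.

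Of 4 measured genes listed for the release or cleavage of proteoglycans, 2 were at least 2-fold lower relative to the median gene and none was higher. Mmp14, a membrane metalloproteinase that can shed syndecan ectodomains, stood at 546 CPM in UT and 145 CPM in IMQ (603 and 67 UMIs, log2 ratio -1.91, -2.30 to -1.54), and at 613 and 140.3 CPM in the fibroblast-like clusters. Notum was listed for a proposed action on glypican anchors, which is not established. It had 46 UMIs in 11 UT barcodes, 19 of them in a single barcode, and 3 UMIs in IMQ. None of these Notum UMIs lay in the fibroblast-like clusters of either library. Of 5 intracellular partners, Ezr (ezrin, a linker of CD44 to actin) was lower, with 35 and 1 UMIs, of which the fibroblast-like clusters held 4 and 0, Cask (a scaffold that binds syndecan tails) was higher, with 14 and 9 UMIs, and Sdcbp (syntenin, which binds the syndecan tail) was level, at 147.5 CPM in UT and 163 CPM in IMQ. The interval of the Cask log2 ratio of 0.62 (-0.77 to 1.93) included 0. No intracellular partner was at least 2-fold higher over all deposited barcodes.

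In the hyaluronan system 4 of 13 genes were measured, and Has1 and Tnfaip6 were higher while Has2 and Vcan were lower. The higher calls rested on few cells: Has1, a hyaluronan synthase, had 29 IMQ UMIs in 4 barcodes, none of them in the fibroblast-like clusters, and Tnfaip6, which crosslinks hyaluronan, had 161 IMQ UMIs of which 135 were in 1 barcode. In the fibroblast-like clusters Tnfaip6 was lower in IMQ, at 75.8 CPM in UT and 21.8 CPM in IMQ (log2 ratio -1.80, -2.99 to -0.79). Vcan, a large hyaluronan-binding proteoglycan, had 51.6 and 15.2 CPM, and Has2 18.1 and 4.34 CPM. With up to 10% mitochondrial counts Vcan was past 2-fold in neither direction, while Has2 was again lower. Of 15 ligands of heparan sulfate or CD44, 11 were measured. Fn1, the fibronectin gene, was higher (108 CPM in UT and 182 in IMQ, log2 ratio 0.76, 0.34 to 1.17), as was Ccl7 on 8 and 7 UMIs, of which the fibroblast-like clusters held 8 and 0, and it was past 2-fold in neither of the other barcode sets. Mdk, a heparin-binding growth factor (82.4 and 8.68 CPM), and Vegfa (27.1 and 4.34 CPM) were lower. Tnc, the tenascin-C gene, had 3 UMIs in UT and none in IMQ and was not measured in the 5% set.

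With up to 10% mitochondrial counts (1301 UT and 1043 IMQ barcodes, 9 of 9 members measured), 1 member was at least 2-fold higher relative to the median gene (Cd44, background 12.1%) and 4 were lower (Sdc1, Sdc4, Gpc1 and Gpc4, background 14.0%). Sdc4 had 312 and 46 UMIs, 237 and 54.3 CPM, and Sdc2 had 199 and 136 UMIs, 151 and 160.5 CPM. Gpc4 had 162 and 32 UMIs, 123 and 37.8 CPM, a log2 ratio of -1.70 (-2.30 to -1.15). The added barcodes of 5 to 10% mitochondrial counts, which the 5% set does not hold, showed the same order. Sdc4 stood there at 184 CPM in UT and 41.4 CPM in IMQ, Sdc2 at 151 and 155 CPM, and Gpc4 at 132 and 31.1 CPM.

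Over all deposited barcodes (1415 in UT with 1524079 UMIs and 5047 in IMQ with 2358303 UMIs), Gm42418 took 22.2% and mitochondrial genes 9.99% of IMQ UMIs, and the median gene had a log2 ratio of -1.04. None of the 9 members was then at least 2-fold higher relative to it (background 11.9%) and 2 were lower, Sdc1 and Gpc1 (background 13.0%). The 488 UT and 290 IMQ UMIs of Sdc4 gave 320.2 and 123 CPM, a log2 ratio of -1.38 (-1.59 to -1.17). However, 1 IMQ barcode with 48937 UMIs, with Mt1 and Tpt1 among its leading genes, held 194 of the 290 UMIs, and 1 UT barcode with 124192 UMIs and 7997 genes, led by Fos, Atf3, Krt15 and Krt14, held 151 of the 488. Without these barcodes Sdc4 had 337 and 96 UMIs and the log2 ratio was -2.53 (-2.88 to -2.20). The same UT barcode held 48 of the 120 Sdc1 UMIs and 12 of the 30 Cd44 UMIs, and without the barcode that held the most UMIs of the gene in each library, a different IMQ barcode for each of these genes than for Sdc4, the log2 ratio of Sdc1 was -1.87 (-2.37 with them) and that of Cd44 -0.11 (-1.02 to 0.83). With them Cd44 had 19.7 CPM in UT and 13.1 CPM in IMQ, a log2 ratio of -0.58 (-1.35 to 0.19), so the higher IMQ value of the 5% set did not extend to all barcodes. Sdc2 had 210 and 266 UMIs, 138 and 113 CPM (-0.29, -0.56 to -0.02), and was thus slightly lower in IMQ by CPM and 0.76 above the median gene.

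Glypicans differed in how they behaved over all barcodes. Gpc4 had 172 and 69 UMIs, 113 and 29.3 CPM (log2 ratio -1.95, -2.37 to -1.54), and its share of glypican UMIs was 68.8% (62.7 to 74.5) in UT and 50.7% (42 to 59.4) in IMQ. Gpc3 had 51 and 53 UMIs, 33.5 and 22.5 CPM (-0.57, -1.16 to 0.01), and its share was 20.4% (15.6 to 25.9) and 39.0% (30.7 to 47.7). A lower Gpc4 level was therefore found in each barcode set. By CPM, Gpc3 was lower in the 5% set and the set of up to 10% mitochondrial counts, with a smaller ratio over all barcodes. Relative to the median gene its log2 ratio was -0.81 (-2.20 to 0.35) in the 5% set and -0.29 (-1.21 to 0.55) at up to 10%. Over all barcodes it was 0.47 (-0.11 to 1.05), so the direction was not held and each interval included 0.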

How the data were processed

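Dermal CD45-negative, tdTomato-positive cells were sorted from UT and IMQ-induced skin. The authors aligned and counted reads with Cell Ranger, version 3.0.0 for UT and 3.1.0 for IMQ per the file headers, against mm10 per the submitters' processing notes, and deposited UMI counts per gene and barcode without normalization; the annotation, the strand setting and the barcode calling rule are not given in the sources used here. The study's methods count more cells in each library than the 5% set holds, and more IMQ cells than the matrix used here.

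Barcodes with 200 to 5000 genes and at most 5% mt- counts were used, with 10% and all barcodes beside them. Counts were summed per library and scaled to CPM. Intervals (95%) were exact Poisson for levels, Clopper-Pearson for shares and exact conditional binomial for ratios, and a count of 0 was replaced by 3 for a bound. They cover counting error only. No test was made, since each group has 1 library. Genes with at least 10 UMIs over both libraries were called past 2-fold relative to the median gene. Clusters came from Seurat 5.3.0 integration (2000 variable genes without the members, 30 dimensions, 20 components, resolution 0.5). A marker counted as enriched at a log2 ratio of at least 2 to the other clusters and at least 10 UMIs. A fibroblast-like cluster had at least 3 fibroblast markers seen in 20% of its cells and no other type with 3 enriched markers. Any other name needed at least 3 markers both seen in 20% of cells and enriched, with no further type enriched. Remaining clusters were left unnamed. These limits were set in an earlier analysis after clusters had been seen. Doublets were kept; Scrublet's highest scores (12 UT and 23 IMQ barcodes) were removed as an alternative. Of 31053 gene identifiers, 31011 were in GENCODE M21, which gave the GRCm38 coordinates. Scaling alternatives used edgeR 4.0.16 and DESeq2 1.42.0, and counting was tested on simulated data. The members and all lists were chosen with earlier results of these data known. Named were all 9 members, up to 4 genes past 2-fold per list by size of the ratio, and the 3 genes nearest to each member with at least 50 UMIs; Sulf2, Sdcbp, Tnc, Gpc2 and Gpc5 were added after their values were seen.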

Additional observations from a re-analysis of the deposited data

How the results depend on the processing

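Depth limited most values. Sdc3, Gpc1, Gpc6 and Cd44 rested on at most 15 UMIs per library in the 5% set, and their ratios span several fold. Of 98 alternative values of the 9 ratios, 83 lay within the counting interval of the reported value, 14 lay outside it, and 1 turned the sign of a ratio whose interval had excluded 0. Gpc6 had too few UMIs for a ratio in the fibroblast-like clusters and in the depth window. A minimum of 500 genes, which left 37 IMQ barcodes, turned Sdc1 to a log2 ratio of 0.22 (-1.06 to 1.31) and moved Sdc4 to -0.11 and Gpc4 to -2.64. It left Gpc1 with no IMQ UMI, a value of 1.02 with 3 counts put in place of 0, and an upper limit of 1.57. Barcodes of 500 to 1500 UMIs, an alternative chosen after seeing the data, moved Sdc4 to -3.21. For Gpc1 they gave 0.36 with 3 counts put in place of 0, and an upper limit of 1.37. The fibroblast-like clusters alone moved Sdc4 to -3.40, and to -2.61 with the minimum of 500 genes, a combination also added later. All deposited barcodes moved Sdc1 to -2.37, Sdc2 to -0.29 and Cd44 to -0.58. The same barcodes without the barcode that held the most UMIs of the gene in each library, also chosen after seeing the data, gave -2.53 for Sdc4 and -0.11 for Cd44. TMM and median-of-ratios scaling moved Sdc2 to 0.61 and 0.60, since they centre on typical genes. The count of members at least 2-fold lower was 2 in the 5% set, 4 at up to 10% mitochondrial counts and 5 without centring on the median gene, and that of members at least 2-fold higher was 1, and 0 over all barcodes. Removing doublets, removing the top barcode from the 5% set, or leaving out mitochondrial, ribosomal protein and Gm42418 counts left the ratios of the 9 members within their intervals. Of 90 alternative shares of cells, 38 moved, most of them under thinning or the minimum of 500 genes, and at a resolution of 0.8 the highest level in any cluster stayed within its interval for the 5 members compared. No paired analysis was possible because each group has 1 library.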

Other observations

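Barcodes outside the limits of the 5% set carried members of their own. The 3621 IMQ barcodes with fewer than 200 genes held 1155477 UMIs, and in them Sdc2 stood at 66.6 CPM (52.6 to 83.3), Sdc4 at 34.6 CPM (24.7 to 47.1), Gpc4 at 20.8 CPM (13.3 to 30.9) and Gpc3 at 19.9 CPM (12.6 to 29.9). The 64 UT barcodes of this kind had 27157 UMIs, 3 of Sdc2, 1 of Sdc3 and 1 of Gpc4, and none of the other members. The 382 IMQ barcodes with over 10% mitochondrial counts had Sdc2 at 144 CPM (104 to 193), close to its level in the 5% set, Gpc3 at 39.1 CPM (20.2 to 68.4) and Sdc4 at 32.6 CPM (15.6 to 60.0).

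The 3 barcodes with more than 5000 genes had Sdc4 at 1101 CPM (940.5 to 1281) over the 2 UT barcodes and at 3964 CPM (3426 to 4563) in the IMQ barcode. In the UT barcode with the most UMIs, 4783 were keratinocyte markers (9 of 10 seen), and Sdc1 and Sdc4 stood there at 386 and 1216 CPM. The IMQ barcode held 4 keratinocyte marker UMIs, 17 fibroblast marker UMIs and no leukocyte marker UMI, and in it Sdc1 had 1 UMI, Sdc2 9 and Cd44 1. The highest Sdc2, Gpc3 and Gpc4 counts per barcode in UT were 7, 9 and 9 UMIs, in cells led by collagen genes or Dcn, each with 6 of 7 fibroblast markers.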
